A study of Mus musculus with 27 samples.

Results

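Protein kinase C (PKC) isoforms are serine and threonine kinases that carry signals from phospholipase C. The genes described here were the 8 isoforms given by symbol, Prkca, Prkcb, Prkcd, Prkce, Prkch, Prkcq, Prkcz and Prkci, of 51906 genes in the bulk count table, taken by their symbols alone. All 8 were found in the bulk table and in the 4 single cell matrices. PKC was of direct interest in this system because the medium under study held a PKC inhibitor.

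Phospholipase C splits a membrane lipid into inositol trisphosphate, which releases calcium, and diacylglycerol, which stays in the membrane. Classical isoforms (here Prkca and Prkcb) need both calcium and diacylglycerol, a second class called nPKC (Prkcd, Prkce, Prkch and Prkcq) needs diacylglycerol alone, and atypical isoforms (Prkcz and Prkci) need neither and work with the Par polarity proteins. In epidermis, PKC is known for its part in the switch from proliferation to terminal differentiation, and Prkch is known as an isoform of differentiating squamous cells.

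The study asked how retinoic acid sets the fate of hair follicle stem cells (HFSCs), the stem cells that renew the hair. For bulk RNA-seq, HFSCs cultured from skin in the resting phase of the hair cycle (telogen, postnatal day 55) were kept in fetal bovine serum (FBS) or in atRA+PKCi, with 2 libraries in each of 4 groups. For single cells, 10x Genomics libraries were made from back skin of 2 wild-type mice in full hair growth (anagen VI, postnatal day 32). Others were made from HFSC cultures of 2 wild-type mice. By the labels these cultures came from anagen VI back skin, without a postnatal day. The paper states that HFSCs for culture were taken from the same mice as the skin cells. Culture conditions were tagged with antibody barcodes (hashtags) and pooled by mouse. Chromatin profiles of the series were not analysed here.

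The atRA+PKCi medium was free of serum. It held all-trans-retinoic acid (atRA), the calcium-dependent PKC inhibitor Go6976 (PKCi) and the supplement B-27 in place of FBS, so a difference between the media covers all of these changes together. The genotypes were wild-type and Rxra cKO, in which a tamoxifen-inducible Cre driven from Sox9 acts on floxed alleles of Rxra, the nuclear receptor partner of the retinoic acid receptors. All lines had been established on growth-arrested feeder cells. The labels give the 2 media of one mouse number and genotype the same mouse.

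Libraries held 25150265 to 35879777 estimated counts, of which 10.9% to 13.1% fell on the 10 leading genes. Genes that mark the outer root sheath, the follicle layer nearest to HFSCs, summed to between 15300 and 34520 counts scaled to library size (CPM) in every library, whereas markers of fibroblasts summed to between 1.35 and 11.6 CPM. Rxra itself was measured in wild-type cells at 149 and 122 CPM with FBS and 147 and 143 with atRA+PKCi, and in Rxra cKO cells at 97.2 and 95.7 with FBS and 148 and 145 with atRA+PKCi. The libraries labelled Rxra cKO were thus lower only in FBS (log2 fold change -0.49, adjusted p = 0.00264 by edgeR) and not in atRA+PKCi (0.01, adjusted p = 0.927). These counts include exons outside the deleted part, so they do not check the deletion.

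The 8 genes lie on different chromosomes of the GRCm38 assembly (GENCODE M21). Prkca spans chr11:107933387-108343928 on the minus strand and Prkcb chr7:122288751-122634402 on the plus strand. Among the nPKC isoforms, Prkcd lies at chr14:30595354-30626210 (minus), Prkce at chr17:86167785-86657919 (plus), Prkch at chr12:73584796-73778185 (plus) and Prkcq at chr2:11172108-11301222 (plus). The atypical genes are Prkcz at chr4:155260129-155361361 (minus) and Prkci at chr3:30995747-31052959 (plus). Expression was counted over whole genes, and all 8 are annotated as protein coding.

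RefSeq start sites on GRCm38.p6 were held for 6 of the 8 isoforms, with 9 windows of 300 bases each. Prkce and Prkch had no window. The windows of the 3 isoforms on which the bulk results turn, one of each class, are shown 5′ to 3′ on the gene's strand, from 250 bases before the start to 50 after it. Capitals mark GGGCGG on either strand, the core of the GC box, which is a common element of promoters without a TATA box.
Prkca, chr11:108343839-108344138, minus strand: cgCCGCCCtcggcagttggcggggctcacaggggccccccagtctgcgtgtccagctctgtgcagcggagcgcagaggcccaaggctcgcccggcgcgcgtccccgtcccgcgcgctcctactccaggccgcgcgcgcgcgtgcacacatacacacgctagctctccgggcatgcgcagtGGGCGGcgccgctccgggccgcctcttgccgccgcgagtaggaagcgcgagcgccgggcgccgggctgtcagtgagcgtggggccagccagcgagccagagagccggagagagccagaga
Prkcd, chr14:30626159-30626458, minus strand, the upstream start: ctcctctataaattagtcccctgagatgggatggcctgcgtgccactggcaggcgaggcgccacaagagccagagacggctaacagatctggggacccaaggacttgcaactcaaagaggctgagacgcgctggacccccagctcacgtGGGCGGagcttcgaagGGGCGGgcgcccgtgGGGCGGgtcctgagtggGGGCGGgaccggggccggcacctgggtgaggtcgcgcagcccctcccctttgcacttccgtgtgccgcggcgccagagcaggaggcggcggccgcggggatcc
Prkci, chr3:30995521-30995820, plus strand: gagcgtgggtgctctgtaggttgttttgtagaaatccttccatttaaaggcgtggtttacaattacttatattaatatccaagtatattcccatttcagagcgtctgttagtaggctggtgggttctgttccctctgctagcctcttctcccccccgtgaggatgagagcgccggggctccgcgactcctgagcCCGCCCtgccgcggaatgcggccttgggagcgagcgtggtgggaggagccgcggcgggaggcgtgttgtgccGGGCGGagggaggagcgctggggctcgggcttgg
The GC content was 75.3% for Prkca, 69.3% for Prkcd and 59.7% for Prkci. The GC box was matched 2 times in the Prkca window, 4 times in the upstream Prkcd window and 2 times in the Prkci window, and it was present in 35.7% of all 32851 windows of this length. The letters AGGTCA, a half-site of retinoid receptors, and TGANTCA, a site of the transcription factor AP-1, were searched on both strands and matched in none of the 9 windows of the isoforms, against 16.3% and 7.81% of all windows. A match or its absence describes only the letters of these windows.

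Bulk cultures held 6 of the 8 isoforms at measurable levels. The classical isoform Prkcb had estimated counts of 0 and 0 in wild-type FBS, 2 and 1 in the other wild-type medium, 0 and 1 in Rxra cKO FBS, and 0 and 0 in the remaining group. The nPKC isoform Prkcq, best known from T cells, had between 0 and 2 counts in every library. Neither passed the filter on low counts, and no fold was computed for them, since 3 counts in a library here correspond to between 0.0785 and 0.116 CPM. Of the 2 classical members, Prkca was therefore the one that these cultures expressed at a measurable level.

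Levels of different isoforms are compared per kilobase (kb) of exon, where Prkci and Prkcd led in all 4 groups. The length used joins all annotated exons of a gene, 5551 bases for Prkci and 5544 for Prkcd. The length of the transcripts expressed was not measured, so any order between isoforms rests on these lengths. In wild-type FBS, Prkci had 11.8 ± 0.831 CPM per kb (SD, n = 2) and Prkcd 11.7 ± 0.603, and their libraries overlapped. Prkch followed at 4.60 ± 0.0577, Prkca at 3.95 ± 0.205, Prkcz at 1.44 ± 0.0829 and Prkce at 0.656 ± 0.153, with no overlap between neighbours. In wild-type atRA+PKCi the order began with Prkci at 18.0 ± 0.233 and Prkcd at 12.2 ± 0.525, which no longer overlapped, and Prkca stood at 1.59 ± 0.0941, close above Prkcz at 1.28 ± 0.182.

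On this scale, the order of the leading pair by mean was opposite in the Rxra cKO cultures. Prkcd had 20.1 ± 0.462 CPM per kb in FBS and 22.2 ± 0.274 in atRA+PKCi, against 14.4 ± 0.954 and 19.0 ± 0.264 for Prkci, with no overlap in either medium. Prkch held the third place in all 4 groups. In Rxra cKO atRA+PKCi, Prkcz at 1.86 ± 0.0143 and Prkca at 1.80 ± 0.0848 overlapped, and Prkce was the lowest of the measurable isoforms in every group.

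**Figure D1:**
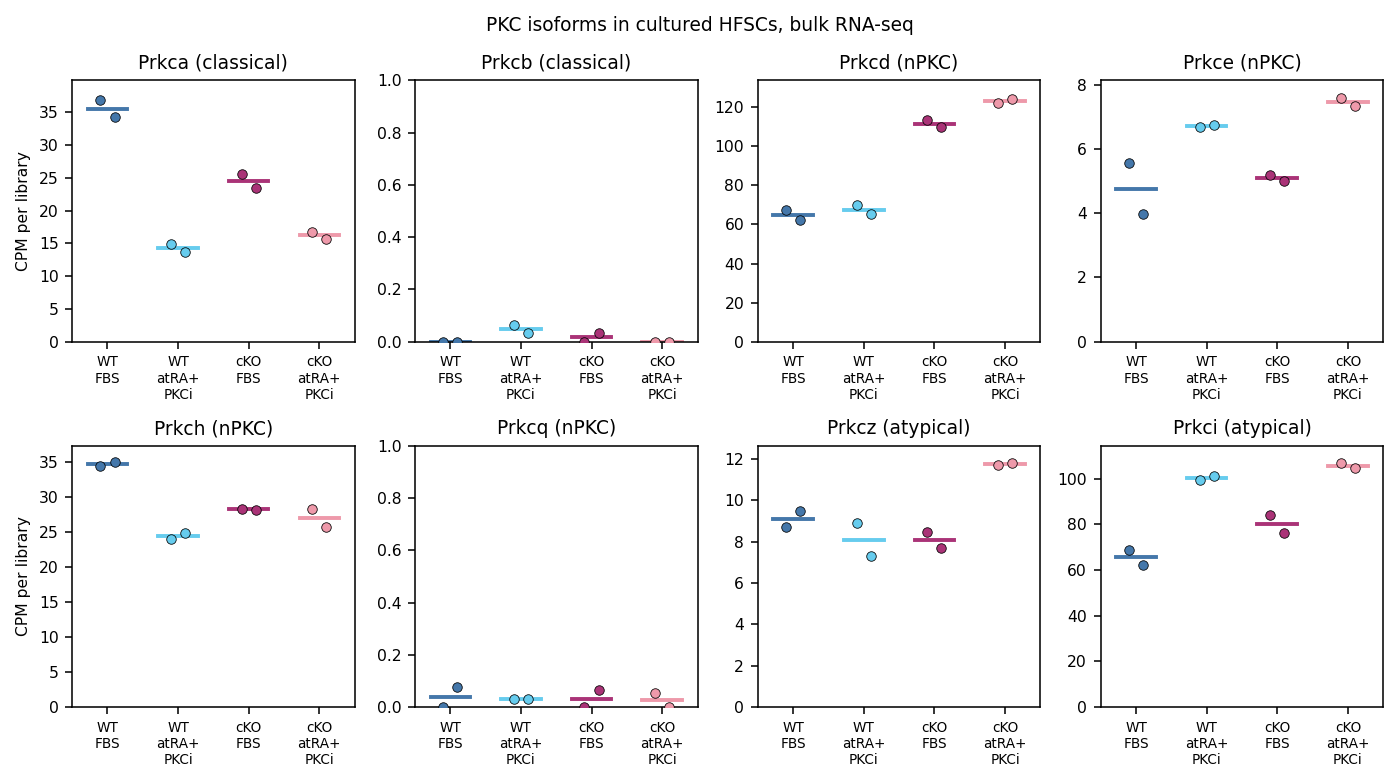
Level of each PKC isoform in bulk RNA-seq of cultured HFSCs, in CPM per library on linear axes that start at 0, by genotype (WT, wild-type; cKO, Rxra cKO) and medium. Points are the 2 libraries of a group and the line is their mean. Prkca is highest in wild-type FBS (36.8 and 34.2 CPM), Prkcd is higher in both cKO groups than in both wild-type groups, and Prkcb and Prkcq stay under 0.1 CPM.

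The medium changed the isoforms of wild-type HFSCs in different directions. Of 6 isoforms tested, 2 were higher in atRA+PKCi (Prkci and Prkce) and 2 lower (Prkca and Prkch), against 27.2% of all 15965 genes tested that were higher and 26.6% that were lower by edgeR's quasi-likelihood test (adjusted p under 0.05, Benjamini-Hochberg). With so wide a background, a count of 4 among 6 isoforms is not a result about the isoforms as a group. Their median log2 fold change was -0.053, against 0.034 over all genes tested.

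Prkca, the classical isoform, had 36.8 and 34.2 CPM in FBS and 14.9 and 13.7 in atRA+PKCi. Every atRA+PKCi library lay under both FBS libraries, and the level fell by 59.8% (log2 fold change -1.31, SE 0.0900, adjusted p = 4.08e-06). In a bulk culture, fewer cells that express a gene and less RNA per cell cannot be told apart. The outer root sheath list moved with it in wild-type cells, at 33080 and 34520 CPM in FBS and 15300 and 15430 in atRA+PKCi, and its part in the result was not tested. In Rxra cKO cells that list stood at 22410 and 24620 CPM in FBS and 25670 and 25570 in atRA+PKCi. Much of the sum came from keratins, so it is not a measure of follicle identity. In wild-type cells its leading gene was Krt14 with FBS (20520 and 22350 CPM) and Krt5 with atRA+PKCi (9262 and 9149). The paper describes KRT14 as a marker shared by all epithelial progenitors of skin. Prkca was the isoform with the largest change among the 6 in the wild-type comparison.

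Prkch, the nPKC isoform of squamous differentiation, had 34.4 and 35.0 CPM in FBS and 24.02 and 24.8 in atRA+PKCi. The groups did not overlap, and the level fell by 29.5% (log2 fold change -0.50, SE 0.0750, adjusted p = 0.000511). Prkce, an nPKC isoform of low level in these cells, had 5.55 and 3.98 CPM in FBS and 6.67 and 6.75 in atRA+PKCi. Its FBS libraries stood wide apart, and the rise (log2 fold change 0.49, SE 0.168, adjusted p = 0.035) lost its call in 12 of 14 alternatives, among them 7 of the 8 that leave out 1 library, with an adjusted p of up to 0.195. The other nPKC isoform measured, Prkcd, a kinase known for roles in cell death and differentiation, had 67.2 and 62.5 CPM in FBS and 69.7 and 65.6 in atRA+PKCi, which overlapped (log2 fold change 0.06, adjusted p = 0.48).

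Of the atypical pair, Prkci, the kinase of the Par polarity complex, had 68.9 and 62.4 CPM in FBS and 99.2 and 101 in atRA+PKCi. Both atRA+PKCi libraries lay above both FBS libraries, a rise of 52.6% (log2 fold change 0.61, SE 0.0751, adjusted p = 0.000163). Prkcz had 8.72 and 9.47 CPM in FBS and 8.92 and 7.29 in atRA+PKCi, with overlap and no call (log2 fold change -0.17, SE 0.130, adjusted p = 0.314).

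In Rxra cKO HFSCs, the same change of medium gave 3 isoforms that were higher and 1 that was lower of 6, against 20.8% and 22.2% of all genes tested. The median log2 fold change was 0.271 over the isoforms and 0.016 over all genes. Prkca again fell, from 25.6 and 23.4 CPM in FBS to 16.8 and 15.7 in atRA+PKCi, without overlap, but by 33.7% (log2 fold change -0.59, SE 0.0895, adjusted p = 0.000847). Prkch had 28.3 and 28.2 CPM in FBS and 28.3 and 25.7 in atRA+PKCi (log2 fold change -0.06, adjusted p = 0.552).

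Prkci rose from 83.8 and 76.3 CPM to 107 and 105 (log2 fold change 0.40, SE 0.0744, adjusted p = 0.00266). Prkcz, for which no medium effect was called in wild-type cells, rose from 8.45 and 7.71 CPM to 11.7 and 11.8 (log2 fold change 0.54, SE 0.128, adjusted p = 0.0091), with both atRA+PKCi libraries above both FBS libraries. That call was lost without Rxra cKO atRA+PKCi replicate 2 (adjusted p = 0.0548) and without Rxra cKO FBS replicate 2 (0.0652). Prkce had 5.18 and 4.99 CPM in FBS and 7.57 and 7.34 in atRA+PKCi (log2 fold change 0.55, SE 0.166, adjusted p = 0.0257), a rise that was not called by DESeq2 or after leaving out any 1 of the 4 Rxra cKO libraries, and Prkcd had 113 and 110 against 122 and 124 (0.14, adjusted p = 0.115).

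The interaction term asked whether the medium effect differed between the genotypes, as the wild-type effect minus the Rxra cKO effect. It was called for 3 of 6 isoforms, all in the lower direction, and for 0 in the higher direction, where 13.3% of all genes were called lower and 11.3% higher. For Prkca the difference was -0.72 (SE 0.126, adjusted p = 0.00381), so that the fall in atRA+PKCi was larger in wild-type cells than in Rxra cKO cells, and this call was kept in all 13 alternatives with the same call rule. For Prkch it was -0.44 (SE 0.106, adjusted p = 0.0166), lost without Rxra cKO atRA+PKCi replicate 1 (0.0678).

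For Prkcz the difference was -0.71 (SE 0.183, adjusted p = 0.0231). It was lost in 4 alternatives, those without Rxra cKO atRA+PKCi replicate 1 (adjusted p = 0.0697) or 2 (0.0818), Rxra cKO FBS replicate 2 (0.0741), or replicate 2 of wild-type atRA+PKCi (0.0683). For Prkci, Prkcd and Prkce the terms were 0.21 (adjusted p = 0.189), -0.08 (0.581) and -0.06 (0.885), and a difference of the medium effect was not shown for them. The median of the interaction was -0.263 over the 6 isoforms and 0.013 over all genes.

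**Figure D2:**
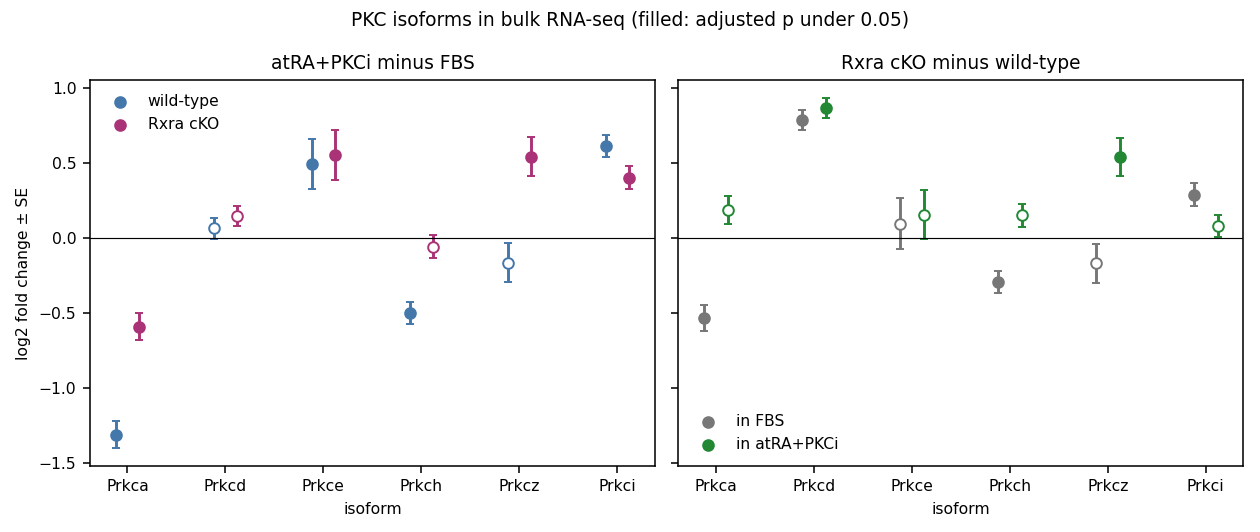
log2 fold change with its SE for the 6 isoforms that passed the filter on low counts, for atRA+PKCi against FBS by genotype (left) and Rxra cKO against wild-type by medium (right). Filled points passed an adjusted p under 0.05 and open points did not. On the left, Prkca lies at -1.31 for wild-type and at -0.59 for Rxra cKO cells, and on the right Prkcd lies at 0.78 and 0.86.

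The genotype comparisons use the same 8 libraries as the medium comparisons, and each is given with its own values. In FBS, 2 isoforms were higher in Rxra cKO cells and 2 lower of 6, where 22.3% and 20.5% of all genes were. In atRA+PKCi, 2 were higher and 0 lower, where 23.0% and 20.2% of all genes were. The median log2 fold change of the isoforms was -0.04 in FBS and 0.169 in atRA+PKCi, against 0.015 and 0.002 over all genes.

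Prkcd differed most by genotype. It had 67.2 and 62.5 CPM in wild-type and 113 and 110 in Rxra cKO libraries in FBS, and 69.7 and 65.6 against 122 and 124 in atRA+PKCi. All 4 Rxra cKO libraries lay above all 4 wild-type libraries, but by the labels these are 2 mice per genotype, each in both media. In every genotype comparison here, a difference between the mice and an effect of Rxra cannot be told apart. The level was 72.1% higher in FBS (log2 fold change 0.78, SE 0.0676, adjusted p = 3.7e-05) and 82.1% higher in atRA+PKCi (0.86, SE 0.0672, adjusted p = 1.7e-05), calls that were kept in all 14 alternatives with the same call rule.

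Prkca was 31% lower in Rxra cKO cells in FBS (25.6 and 23.4 against 36.8 and 34.2 CPM, log2 fold change -0.54, SE 0.0874, adjusted p = 0.00133), without overlap. In atRA+PKCi its levels were 16.8 and 15.7 CPM in Rxra cKO and 14.9 and 13.7 in wild-type cells, and the difference was not called (0.19, adjusted p = 0.135). Prkch was lower in FBS (log2 fold change -0.30, SE 0.0748, adjusted p = 0.0121), a call lost without Rxra cKO FBS replicate 2 (0.0581), and was not called in atRA+PKCi (0.15, adjusted p = 0.148).

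Prkci was higher in Rxra cKO cells in FBS (log2 fold change 0.29, SE 0.0753, adjusted p = 0.0143) but lost the call in 5 of 14 alternatives, among them without Rxra cKO FBS replicate 1 (adjusted p = 0.102) and without wild-type FBS replicate 2 (0.0576). In atRA+PKCi it was not called (0.08, adjusted p = 0.435). Prkcz was 44.9% higher in Rxra cKO cells in atRA+PKCi (log2 fold change 0.54, SE 0.128, adjusted p = 0.00901) and not called in FBS (-0.17, adjusted p = 0.331). The first call was lost without Rxra cKO atRA+PKCi replicate 2 (0.0531) or wild-type atRA+PKCi replicate 2 (0.0613). Prkce was not called in FBS (0.09, adjusted p = 0.702) or atRA+PKCi (0.15, adjusted p = 0.486).

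As shares of the summed PKC level per kilobase, the classical isoforms held 11.6% and 11.5% of wild-type FBS libraries and 4.42% and 4.13% of wild-type atRA+PKCi libraries. In Rxra cKO cells they held 6.45% and 6.23% with FBS and 3.75% and 3.54% with atRA+PKCi. Nearly all of this was Prkca, and within each genotype the share was lower in the medium that held the inhibitor. The atypical share of wild-type libraries was 39.0% and 38.6% with FBS and 51.2% and 52.4% with atRA+PKCi. That of Rxra cKO libraries was 37.2% and 35.8% with FBS and between 42% and 42.3% with atRA+PKCi. The nPKC share made up the rest, between 43.5% and 58.0%, and was highest in Rxra cKO FBS. These shares rest on the same exon lengths and were not tested.

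**Figure D3:**
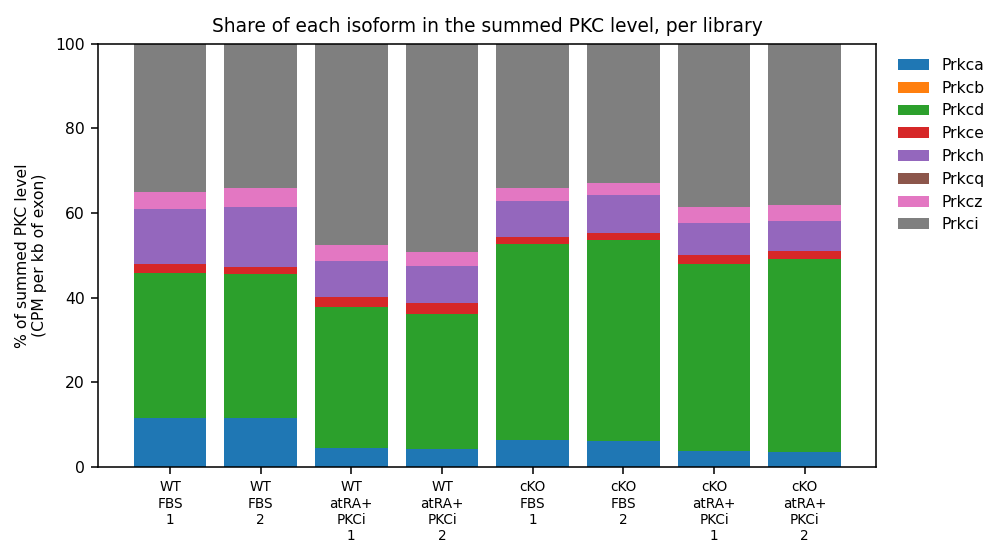
Share of each isoform in the summed PKC level of a library (percent of the summed CPM per kb of exon) for the 8 bulk libraries, labelled by genotype, medium and replicate. Prkcd and Prkci fill most of every bar, and the Prkca segment of wild-type cells shrinks from 11.6% and 11.5% with FBS to 4.40% and 4.12% with atRA+PKCi, Prkcb adding next to nothing.

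Around the isoforms, a list of 63 genes of the PKC pathway was followed, of which 51 were tested. With atRA+PKCi, 16 rose and 15 fell in wild-type cells (median log2 fold change 0.079), where 27.2% of all genes rose and 26.6% fell. In Rxra cKO cells 14 rose and 17 fell (median -0.039), where 20.8% and 22.2% of all genes did. Rxra cKO against wild-type gave 17 higher and 16 lower in FBS (median -0.08), with 22.3% and 20.5% of all genes, and 15 higher and 13 lower in atRA+PKCi (median 0.047), with 23.0% and 20.2% of all genes. The interaction was called for 11 in the higher and 9 in the lower direction, with 11.3% and 13.3% of all genes, and its count went from 20 to 12 when either replicate 1 or replicate 2 of the Rxra cKO atRA+PKCi cultures was left out. No result about the pathway as a group is read from these counts.

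Among phospholipases C, which make diacylglycerol, 2 of 8 tested rose and 3 fell in wild-type atRA+PKCi, with 27.2% and 26.6% of all genes. Plcg2 rose from 36.6 and 32.8 CPM to 72.9 and 63.3 (log2 fold change 0.97, adjusted p = 3.66e-05). Plcd4 of wild-type cells had 1 and 0 counts with FBS (0.0365 and 0 CPM) and 2.63 and 3.61 CPM with atRA+PKCi, so no fold is given, and it rose from 0.252 and 0.421 to 3.25 and 3.61 CPM in Rxra cKO cells (log2 fold change 3.32, adjusted p = 0.000161). Plcg1 was lower in Rxra cKO than in wild-type FBS (77.1 and 71.7 against 167 and 136 CPM, log2 fold change -1.02, adjusted p = 6.36e-05), whereas Plcb4 was higher in Rxra cKO cells in FBS (log2 fold change 2.15, adjusted p = 0.00108) and in atRA+PKCi (1.68, adjusted p = 0.00249).

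Diacylglycerol kinases, which remove the lipid, rose for 3 and fell for 0 of 7 tested in wild-type cells, with 27.2% and 26.6% of all genes. In Rxra cKO cells 3 rose and 3 fell, with 20.8% and 22.2% of all genes, and the difference between these counts was not tested. Dgkh showed a difference of the medium effect between genotypes (log2 difference 1.0088, adjusted p = 0.0106). Wild-type libraries had 3.76 and 4.10 CPM with FBS and 3.46 and 3.99 with atRA+PKCi, against 15.3 and 12.96 and then 7.18 and 6.11 in Rxra cKO libraries.

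Of the 4 other receptors of diacylglycerol tested, 1 rose and 3 fell in wild-type cells, where 27.2% and 26.6% of all genes did. Unc13d, which primes vesicles for release, had 31.0 and 27.7 CPM in wild-type FBS libraries and 2.25 and 2.41 with atRA+PKCi (log2 fold change -3.65, adjusted p = 5.81e-08), against 8.27 and 8.49 and then 2.51 and 2.27 in the Rxra cKO groups (-1.80, adjusted p = 8.39e-06). Its interaction was -1.85 (adjusted p = 0.000151), and it was lower in Rxra cKO than in wild-type FBS (-1.81, adjusted p = 5.84e-06). Chn2, a GTPase-activating protein for Rac, moved the other way in wild-type cells, from 0.767 and 0.618 CPM to 6.35 and 5.64 (log2 fold change 3.10, adjusted p = 5.2e-06), and it had an interaction of 2.94 (adjusted p = 0.000205).

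Rasgrp1, an activator of Ras, had 1.46 and 1.43 CPM in wild-type FBS but 2 counts in each wild-type atRA+PKCi library (0.0642 and 0.0634 CPM). In Rxra cKO cells it rose from 0.863 and 1.17 to 2.62 and 1.45 CPM (log2 fold change 1.0105, adjusted p = 0.0432). No fold against the wild-type atRA+PKCi libraries is given, as they lie under the limit that 3 counts set. Unc13b had an interaction of -0.88 (adjusted p = 0.0016), and Chn2 was lower in Rxra cKO than in wild-type atRA+PKCi (-0.83, adjusted p = 0.00687).

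Substrates and kinases downstream of PKC rose for 4 and fell for 4 of 10 tested in wild-type cells, where 27.2% and 26.6% of all genes did. Prkd1, a kinase that PKC activates, fell from 4.56 and 2.98 CPM to 0.962 and 1.045 (log2 fold change -1.91, adjusted p = 0.000562), and it was lower in Rxra cKO than in wild-type FBS (-1.36, adjusted p = 0.00452). Marcks, a membrane substrate of PKC, rose in Rxra cKO atRA+PKCi from 125 and 126 to 206 and 209 CPM (0.72, adjusted p = 0.000196). Gap43, another substrate, had 9.93 and 10.9 CPM in Rxra cKO FBS libraries and 3.17 and 4.47 with atRA+PKCi (-1.45, adjusted p = 0.00207), and lay at or under 0.329 CPM in every wild-type library, where its call in atRA+PKCi (adjusted p = 0.0478) rests on few counts and no fold is given. Ppp1r14c, a phosphatase inhibitor, was lower in Rxra cKO than in wild-type FBS (-0.89, adjusted p = 9.57e-06) and had an interaction of -0.83 (adjusted p = 0.000233).

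Of the scaffolds and polarity partners, 3 of 10 tested rose and 3 fell in wild-type cells, near the 27.2% and 26.6% of all genes. Akap12, an anchor that binds PKC, had 18.9 and 19.9 CPM in wild-type FBS libraries and 7.44 and 6.62 with atRA+PKCi, but 239 and 246 and then 92.7 and 98.6 in the Rxra cKO groups. It was higher in Rxra cKO cells in FBS (log2 fold change 3.64, adjusted p = 7.94e-08) and in atRA+PKCi (3.76, adjusted p = 7.29e-08), and it fell with the medium in Rxra cKO cells (-1.34, adjusted p = 2e-06). Pard6g, a partner of the atypical isoforms in the Par complex, rose in Rxra cKO atRA+PKCi from 154 and 145 to 248 and 238 CPM (0.70, adjusted p = 7.06e-05).

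Among genes that prime or dephosphorylate PKC, 2 of 8 tested rose and 2 fell in wild-type cells, near the 27.2% and 26.6% of all genes. Phlpp1, a phosphatase of PKC, fell in Rxra cKO atRA+PKCi from 27.04 and 25.1 to 11.9 and 11.7 CPM (log2 fold change -1.14, adjusted p = 2.56e-05). Rictor, a subunit of the complex that primes PKC, had 39.6 and 35.4 CPM in Rxra cKO atRA+PKCi against 79.2 and 78.7 in wild-type atRA+PKCi (-1.07, adjusted p = 6.19e-05), where Plcg2 was lower as well (-0.87, adjusted p = 0.000104). Pkn3, a PKC-related kinase, was lower in Rxra cKO than in wild-type atRA+PKCi (-1.35, adjusted p = 2e-04).

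Of the tagged cultures, B-27 had neither atRA nor PKCi, whereas BMP2/4, Rspo, Rspo+BMP2/4 and Rspo+BMP2/4+RARi all held atRA+PKCi. BMP2/4 are bone morphogenetic proteins, Rspo is R-spondin, an enhancer of WNT signals, and RARi is an inhibitor of retinoic acid receptors. BMP2/4 against B-27 therefore changes atRA, PKCi and BMP2/4 together, and their parts cannot be told apart. Of 449 and 208 barcodes in mouse 1 and 2, which shared 0, 222 and 78 were kept as cells with 1 hashtag. Over the mitochondrial limit lay 187 and 114 barcodes. B-27 was left with 5 and 10 cells, Rspo with 5 and 6, BMP2/4 with 113 and 13, Rspo+BMP2/4 with 92 and 27 and Rspo+BMP2/4+RARi with 5 and 21, so conditions differ in cell number as well.

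UMI counts were summed per mouse and condition, and 10 sums entered the test. The atRA+PKCi condition without growth factors had 2 and 1 cells and was not tested, and FBS had 0. Median UMIs per cell lay at 27849 and 15300 in B-27 and at 32523 and 29890 in BMP2/4, and at 2359 in Rspo of mouse 2. Fibroblast markers summed to between 0 and 5.29 CPM, and 6 or 7 of the 7 were at 0 in every sum. Of the isoforms, 5 passed the filter on low counts, and Prkcd, Prkcb and Prkcq did not.

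In BMP2/4 against B-27, 2 of the 5 isoforms tested were lower and 0 higher, where 8.84% of 6265 genes were lower and 1.53% higher (10.4% in either direction). Prkca had 344 CPM in mouse 1 and 250 in mouse 2 in B-27, against 48.4 and 56.8 in BMP2/4, and neither mouse overlapped (log2 fold change -2.38, SE 0.611, adjusted p = 0.0138 by edgeR). Prkch had 154 and 159 CPM in B-27 and 19.2 and 29.4 in BMP2/4 (-2.66, SE 0.553, adjusted p = 0.00283). Both genes that fell here were also lower in the bulk wild-type atRA+PKCi cultures. Those lacked BMP2/4, were compared with serum and came from telogen and not anagen VI skin. The tagged atRA+PKCi cultures without growth factors, nearest to that bulk medium, had 2 and 1 cells and were not tested. Prkca had 215 and 181 CPM there, and Prkch 0 and 22.7, from at most 1 UMI. In Rspo cultures Prkca had 117 and 0 CPM and Prkch 87.5 and 13.8.

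The calls of Prkca and Prkch in BMP2/4 against B-27 each rest on few cells. The call of Prkca was lost without B-27 replicate 1 (adjusted p = 0.0704), BMP2/4 replicate 1 (0.202) or BMP2/4 replicate 2 (0.134), and that of Prkch without BMP2/4 replicate 1 (0.122). Prkci had 63.5 and 31.9 CPM in B-27 and 19.2 and 15.7 in BMP2/4 (-1.21, SE 0.511, unadjusted p = 0.028 in edgeR, adjusted p = 0.147), without overlap. At an unadjusted p under 0.05 in edgeR, 4 of the 5 isoforms passed, as did 1507 of all 6265 genes tested. Prkce had 74.1 and 50.1 against 26.0 and 62.6 CPM, which overlapped (-0.52, adjusted p = 0.524).

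Prkcz had 0 UMIs in both B-27 sums, which allows a level of up to 15.9 and 13.7 CPM, and 8.93 and 7.83 CPM in BMP2/4 (unadjusted p = 0.0267 in edgeR, adjusted p = 0.142). Both BMP2/4 values lie under that limit, and no fold is given. Prkcd, untested, had 21.2 and 9.10 CPM in B-27 and 21.4 and 19.6 in BMP2/4. Prkcb had at most 2 UMIs and Prkcq at most 1 in any sum. The deepest sum, BMP2/4 of mouse 1, held 0 of 3696276 UMIs for each, with an upper end of 0.998 CPM. These limits cover counting error only.

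Adding Rspo to BMP2/4 gave no call among the 5 isoforms, and 0% of 6265 genes were called by edgeR or by DESeq2 (44 genes had an unadjusted p under 0.05). Prkcz had 17.7 and 29.5 CPM in Rspo+BMP2/4, above both BMP2/4 sums, with an unadjusted p of 0.0374 in edgeR and an adjusted p of 1. Prkca had 47.6 and 84.3 CPM, Prkch 24.6 and 36.5, Prkce 44.9 and 40.7 and Prkci 23.4 and 33.7, all with an adjusted p of 1. With 5 residual degrees of freedom and SEs of 0.413 to 0.587, such a test does not show that the cultures were alike.

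Adding RARi to Rspo+BMP2/4 likewise gave no call among the 5 isoforms, with 0% of 6265 genes called by edgeR or DESeq2 and 232 at an unadjusted p under 0.05. Prkce had 135 and 89.6 CPM with RARi against 44.9 and 40.7 without it, with no overlap (log2 fold change 1.09, SE 0.434, unadjusted p = 0.0214 in edgeR, adjusted p = 0.959). The mice disagreed for Prkch, at 125 and 21.6 CPM, for Prkca, at 114 and 49.8, and for Prkcz, at 62.4 and 19.9. The sum of mouse 1 with RARi holds 5 cells.

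**Figure D4:**
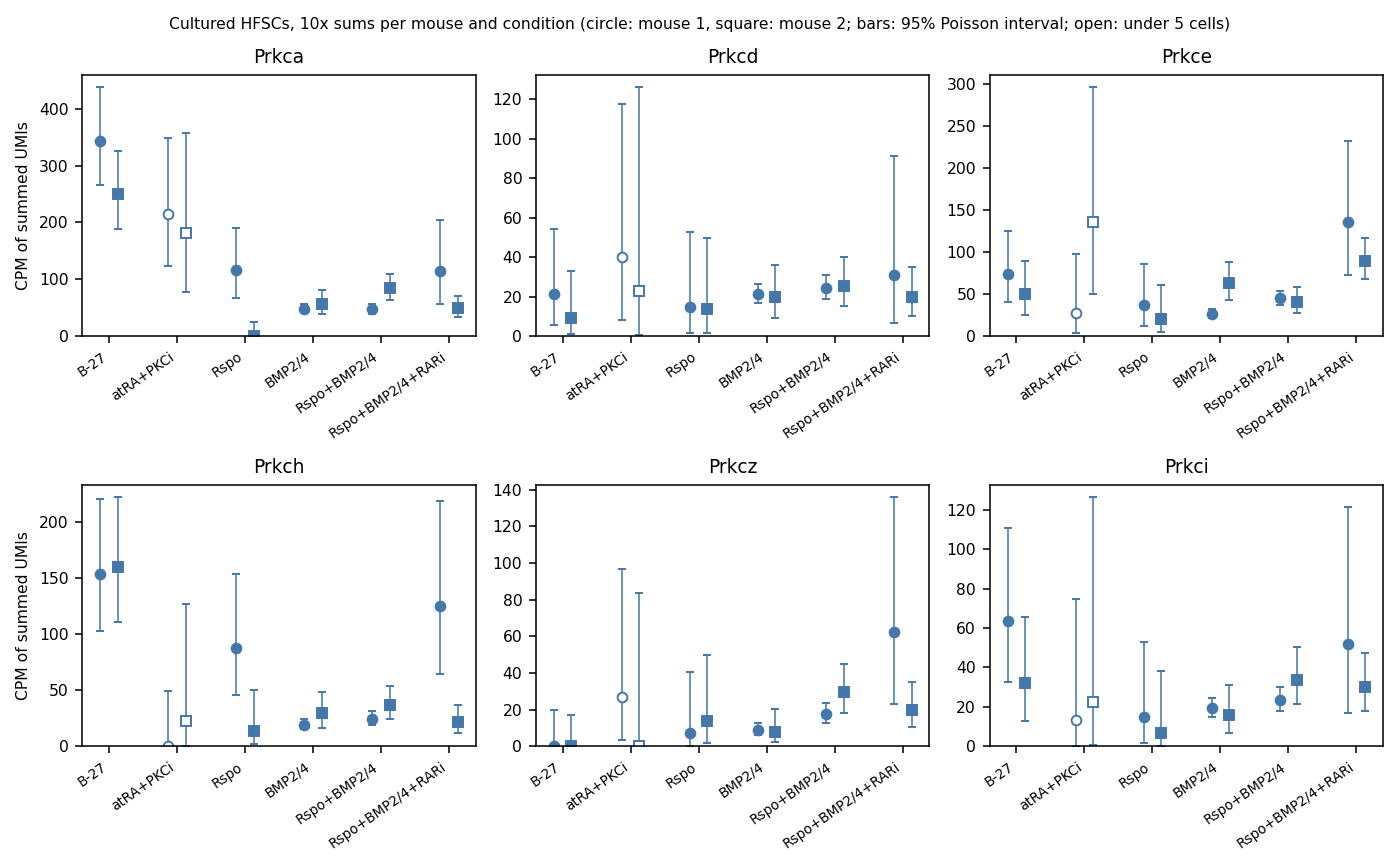
Level of 6 isoforms in the tagged cultures (CPM of summed UMIs, linear axes from 0) by condition, with circles for mouse 1 and squares for mouse 2. Bars are exact 95% Poisson intervals, which cover counting error only, and open symbols are sums of under 5 cells. Prkca and Prkch are high in B-27 (344 and 250 CPM; 154 and 159 CPM) and low in BMP2/4 in both mice.

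In anagen VI skin, the isoforms differed in the cell classes where each was highest. The matrices held 16521 and 16068 barcodes, with 62 shared between the mice, and 13625 and 13328 cells remained after filters and removal of called doublets (5.762% and 4.218% of the cells kept). The cells had been sorted to deplete immune, endothelial, fibroblast and Kit-positive cells, though the fibroblast-like class still held 5592 and 5259 cells, and class sizes are not compared. Clustering without the 8 isoforms gave 33 clusters, of which 10 stayed unnamed (13.1% and 17.9% of cells). Clusters were joined by name into 25 classes with at least 20 cells in each mouse, and since they were made from the same cells, levels by class are a description with no test. Unspliced RNA may count in such data, so levels are compared between classes and not between isoforms. Classes also differed in the median share of Malat1, an RNA of the nucleus. It was 5.24% and 3.81% in unnamed cluster 20, 2.52% and 2.76% in the outer root sheath-like class and 0.646% and 0.703% in the hair matrix-like class. The part of such differences in the levels by class was not tested.

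The fibroblast-like class joins clusters that came mostly from 1 mouse each. Cluster 1 had 2918 and 126 cells and cluster 7 had 162 and 1981. Even so, the levels of the 2 mice were near each other, with a median ratio of the higher to the lower mouse over the 25 classes of between 1.15 for Prkci and 1.87 for Prkcb.

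Prkca was highest in unnamed cluster 20, at 1388 CPM in mouse 1 and 1419 in mouse 2. That cluster of 93 and 350 cells, led by Kcnb2 and Grm7, had the outer root sheath list as its best match but scored under the minimum for a name. Its cells had low UMI counts (medians of 3888 and 5714.5) and a high mitochondrial share (7.55% and 6.28%), and their part in its levels was not tested. The next classes overlapped, the dermal papilla-like class at 373 and 440 CPM, the outer root sheath-like class at 379 and 429 and unnamed cluster 13, led by Ddit4l and Fgf5, at 363 and 428. Unnamed cluster 25, led by Csn1s1 and Lalba, at 455 and 282 and the Schwann cell-like class at 252 and 467 overlapped them as well.

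The classes of the hair and its inner sheath had lower Prkca than the outer root sheath-like class. The hair matrix-like class had 40.7 and 71.5 CPM, the hair shaft cortex and cuticle-like class 41.6 and 67.5, and the inner root sheath-like class 60.3 and 106. All of these lay under both outer root sheath-like values. Under the filter of 1000 or more genes and under 5% mitochondrial UMIs, or without doublet removal, the outer root sheath-like class was the highest, at 418 and 505 CPM as means over mice.

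Prkcb, the other classical isoform, was highest in immune and dermal classes. It had 304 and 566 CPM in unnamed cluster 31, led by the B cell genes Cd79a and Iglc2, and 145 and 215 in the myeloid and Langerhans cell-like class. On the marker list of that class, Lyz2 had 5267 and 6085 CPM but Cd207, the marker of Langerhans cells, 4.69 and 0.384. Langerhans cells are therefore not shown in it. The dermal papilla-like class had 48.5 and 36.9 CPM and the fibroblast-like class 16.5 and 24.2. The hair shaft cortex and cuticle-like class had 0.685 and 1.65 CPM, from 3 and 5 UMIs, and the outer root sheath-like class 0.676 and 2.42, so few UMIs that no expression is read from them.

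Among nPKC isoforms, Prkcd was highest in the myeloid and Langerhans cell-like class, at 108 and 129 CPM, followed without overlap by unnamed cluster 31 at 62.9 and 89.8. In the epithelium it stood at 47.8 and 46.1 CPM in the hair shaft medulla-like class, 40.7 and 42.04 in the suprabasal epidermis and infundibulum-like class and 33.7 and 39.9 in the outer root sheath-like class. The endothelium-like class was among the lowest, at 5.64 and 12.04 CPM. Prkce was highest in unnamed cluster 31, at 509 and 545 CPM, and in cluster 20, at 375 and 306, and then in the dermal papilla-like (261 and 275), Schwann cell-like (269 and 266) and melanocyte-like (250 and 256) classes. Under the filter of 1000 or more genes and under 5% mitochondrial UMIs, the highest class was Schwann cell-like for Prkce (270 CPM) and the myeloid and Langerhans cell-like class for Prkcb (182 CPM), as means over mice.

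Prkch was highest in the endothelium-like class, at 947 and 520 CPM, which overlapped cluster 20 at 635 and 580. Cluster 13 had 338 and 394 CPM and the inner root sheath-like class 189 and 291, while the fibroblast-like class had 14.2 and 15.9 and the adipocyte-like class 11.9 and 16.4. The name of the adipocyte-like class rests on part of its marker list. Lpl had 1929 and 3017 CPM there, but Adipoq 26.7 and 4.33 and Cidec 1.48 and 0.918. Prkcq was highest in the skeletal muscle-like class, at 107 and 148 CPM, overlapping the Schwann cell-like class at 112 and 49.5. The myeloid and Langerhans cell-like class followed at 42.2 and 39.2, with a Prkcq UMI in 9.80% and 9.69% of its cells. No class was named for T cells at the main resolution. With finer clusters (resolution 1.0), a T cell-like class appeared with 302 CPM of Prkcq and was the highest. Whether its cells had lain in the myeloid and Langerhans cell-like class was not tested.

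Of the atypical isoforms, Prkcz was low throughout, with 33.8 and 28.9 CPM in the endothelium-like class, from 12 and 24 UMIs, and 14.4 and 19.9 in the hair shaft cortex and cuticle-like class. Prkci was highest in cluster 20, at 151 and 132 CPM, followed by cluster 25 at 99.9 and 106, cluster 13 at 88.1 and 106 and the hair shaft cortex and cuticle-like class at 81.8 and 93.6. The outer root sheath-like class had 72.9 and 78.3 CPM. Prkci was lowest in the myeloid and Langerhans cell-like class, at 18.8 and 22.7 CPM, so that every epithelial class named here lay above it. Its highest class was cluster 13 under the stricter cell filter (92.2 CPM) and without doublet removal (90.03 CPM).

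**Figure D5:**
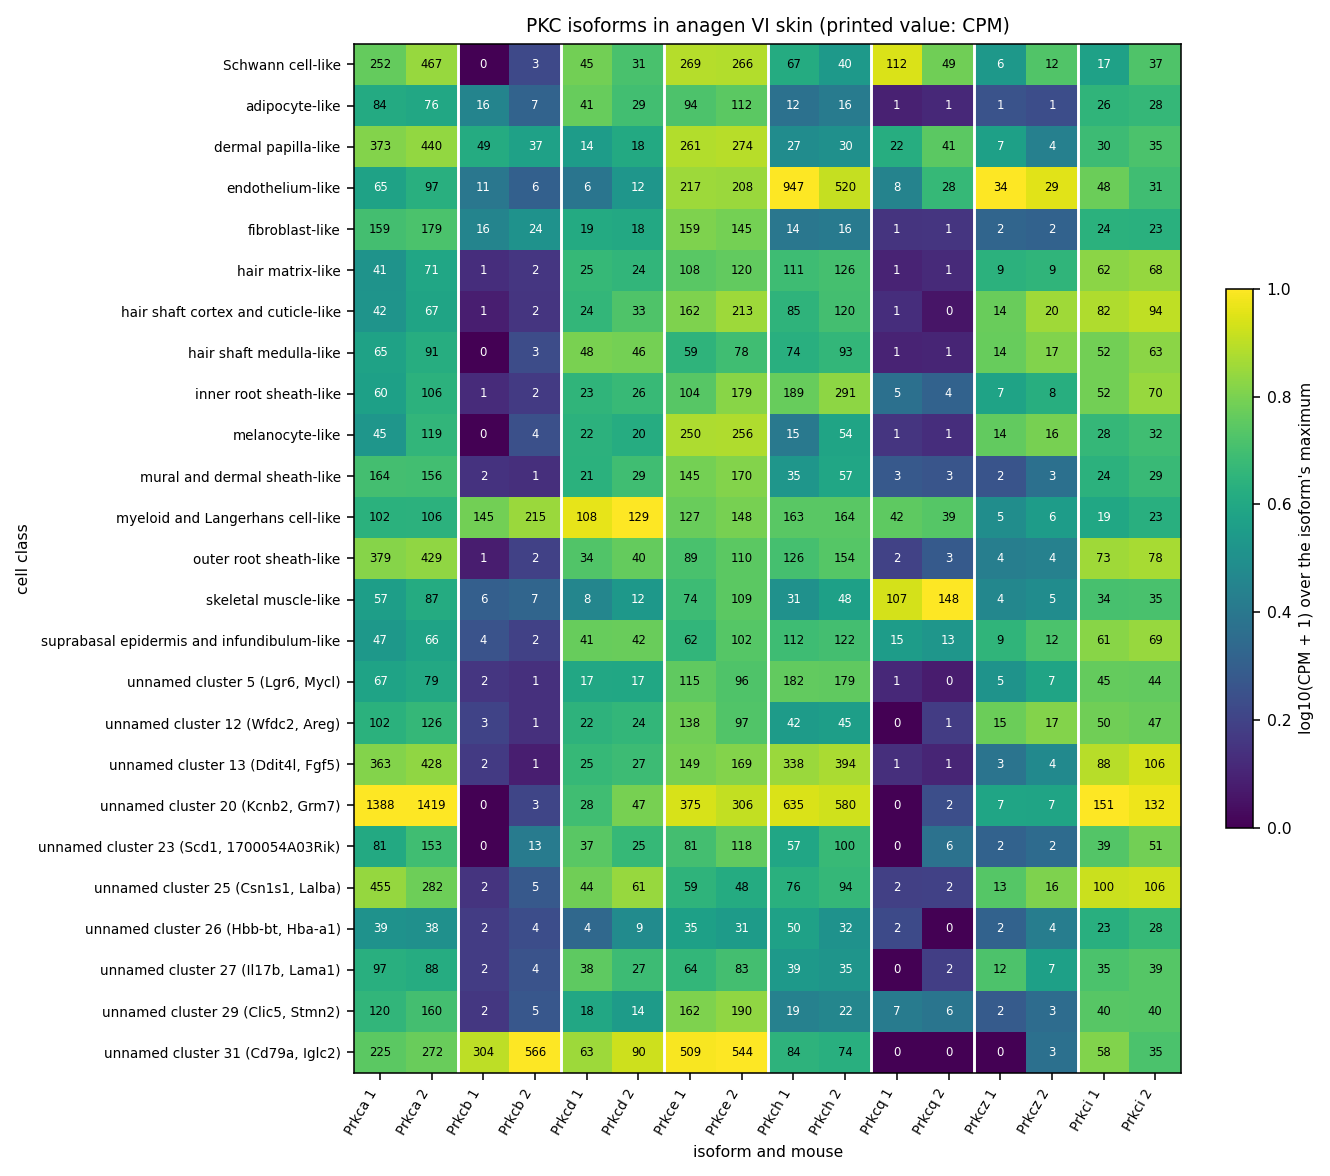
Level of each isoform in the 25 cell classes of anagen VI skin, by mouse (1 and 2), with the CPM printed in each cell and the colour giving log10(CPM + 1) as a fraction of that isoform's maximum. Unnamed clusters carry their 2 leading genes. Prkca peaks in unnamed cluster 20 (1388 and 1419 CPM), Prkch in the endothelium-like class (947 and 520), Prkcd in the myeloid and Langerhans cell-like class (108 and 129) and Prkcq in the skeletal muscle-like class (107 and 148).

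Genes whose levels over classes and mice were most like those of an isoform were found by Pearson r of log2(CPM + 1) over 50 points, which share libraries and depth within a mouse. They were Pdzrn3 (r = 0.811) and Lpp (0.798) for Prkca, Ighm (0.849) and Dock2 (0.834) for Prkcb, and Dclre1c (0.666) and Actr3 (0.664) for Prkcd. For Prkce they were Pi4ka (0.842) and Edem3 (0.831), for Prkch Rapgef5 (0.865) and Tbc1d8 (0.858), and for Prkcq Gatm (0.688) and Mdfic (0.667). For the atypical isoforms they were Ica1 (0.8) and Stox2 (0.727) with Prkcz, and Patj (0.853), a polarity protein of epithelia, and Nr6a1 (0.835) with Prkci.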

How the data were processed

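Bulk RNA-seq covered 8 libraries, and 10x matrices covered skin and tagged cultures of 2 mice each. The authors deposited estimated counts per gene (Salmon 1.4.0, tximport, mm10) without normalization, and a second deposited table holds the authors' normalized signal per gene and library, used only in alternatives. Matrices hold UMI counts as deposited, from Cell Ranger (7.0.1 per the labels), before removal of free RNA or doublets. Whether intronic reads were counted is not given in the sources used here. The isoforms and gene lists were chosen with earlier results of these data known.

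edgeR 4.0.16 (R 4.3.3) was fitted to rounded estimated counts as 1 mean for each of 4 groups, after filterByExpr and TMM, and its quasi-likelihood test was called at an adjusted p under 0.05 (Benjamini-Hochberg). CPM values are scaled by TMM. The fit was tested on simulated data. The labels place same-numbered libraries of a genotype in 1 mouse. Over 15965 genes, their deviations from group means correlated at 0.135 (wild-type) and -0.000821 (Rxra cKO). P-values measure the spread between these libraries.

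The cell filter asked for at least 500 genes, at least 1000 UMIs and a mitochondrial share under 10%. HTODemux in Seurat 5.3.0 called hashtags (positive quantile 0.99), and Scrublet in scanpy 1.11.5 called doublets in vivo. Clusters (3000 variable genes other than the isoforms, 30 principal components, 20 neighbours, resolution 0.6) were named by marker lists at a score of at least 1.5 with a marker among the 10 leading genes or at least 5 detected, limits set after the clusters were seen. Sums of at least 5 cells were tested with edgeR.

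Named genes were all 8 isoforms, in each bulk comparison the 4 pathway genes of largest and the 4 of smallest log2 fold change among those called at a mean of at least 1 CPM, and for each isoform the 2 genes most like it in vivo at a mean of at least 20 CPM. Some genes that this rule names are not reported here. Alternatives in bulk were DESeq2 1.42.0, all genes without the low-count filter, a stricter call rule, leaving out each library, the replicate block, only the groups compared, and limma 3.58.1 on log2 of the authors' values plus a pseudocount of 1 or 0.5. In cells they included another hashtag rule, other cell filters, a minimum of 10 cells, resolution 1.0, no doublet removal and each mouse alone. ATAC-seq and CUT&RUN samples were not analysed here.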

Additional observations from a re-analysis of the deposited data

Results flagged for a closer look

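The effect of the atRA+PKCi medium differed between the genotypes for 3 of 6 isoforms, by the interaction term of edgeR. All were in the lower direction, where 13.3% of all genes were called lower and 11.3% higher. Differences are given as the wild-type effect minus the Rxra cKO effect on the log2 scale. For Prkca the difference was -0.72, as a fall of 1.31 in wild-type stood against a fall of 0.59 in Rxra cKO cells. For Prkch it was -0.44, from a fall of 0.50 in wild-type and -0.06, not called, in Rxra cKO cells. For Prkcz it was -0.71, from -0.17, not called, in wild-type and 0.54 in Rxra cKO cells. Of 13 alternatives with the same call rule, the Prkch call was lost in 1 and the Prkcz call in 4. Tests for outlying samples were not made, since no group had 4 samples.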

How the results depend on the processing

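With the mouse as a replicate block, 4 isoforms were called in the wild-type and 4 in the Rxra cKO medium comparison, 4 and 2 in the genotype comparisons in FBS and atRA+PKCi and 3 in the interaction, 2 in BMP2/4 against B-27 and 0 in the other culture comparisons, with 30 and 20 pathway genes in wild-type medium and interaction. The block changed no isoform call, and with it 8470, 6671, 6631, 6788 and 3615 of 15965 genes were called in the 5 bulk comparisons. With calls limited to an adjusted p under 0.01 and a log2 fold change beyond 1 in size, isoforms called were 1 in wild-type medium, 0 in Rxra cKO medium, 0 in each genotype comparison, 0 in the interaction and 1 in BMP2/4 against B-27, and pathway genes 10 in wild-type medium and 3 in the interaction. That rule called 2960, 1858, 1761, 2081 and 1134 of all genes in the 5 bulk comparisons. Leaving out 1 library or sum gave 2 to 4 isoforms in Rxra cKO medium, 1 to 2 in the genotype comparison in atRA+PKCi, 1 to 3 in the interaction, 12 to 23 pathway genes in the interaction and 0 to 2 isoforms in BMP2/4 against B-27. Without Rxra cKO atRA+PKCi replicate 1 or 2, 2458 or 2392 genes were called in the interaction and 4543 or 4585 in Rxra cKO medium.

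Direction turned only for differences that were not called, in these settings. Leaving out 1 library gave ranges of -0.0043 to 0.1115 for Prkcd in wild-type medium, -0.1103 to 0.004 for Prkch in Rxra cKO medium, -0.1277 to 0.3534 for Prkce by genotype in FBS and -0.2818 to 0.1992 for the Prkce interaction. With limma on the authors' normalized counts at a pseudocount of 1 or 0.5, Prkca (-0.0706 or -0.0707) and Prkci (-0.0218) turned by genotype in atRA+PKCi, and Prkcd (0.0196) in the interaction. In the cultures, leaving out 1 sum gave -0.9844 to 0.0895 for Prkce in BMP2/4 against B-27, -0.0862 to 0.5252 for Prkca and -0.4866 to 0.6053 for Prkce on adding Rspo, and -0.3698 to 0.2975 for Prkca, -0.4546 to 1.525 for Prkch and -0.1754 to 0.9049 for Prkcz on adding RARi. On adding RARi, Prkca turned with DESeq2 (0.0588), the other hashtag rule (0.0612) and a mitochondrial limit of 20% (0.3924), Prkch with that hashtag rule (-0.0192) and a minimum of 10 cells (-0.4381), and Prkcz with the mitochondrial limit (-0.0876) and that minimum (-0.1531). The cause was not tested.

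In vivo, the highest class was the same for 4 of 8 isoforms with 1000 or more genes and under 5% mitochondrial UMIs, 7 at resolution 1.0, 6 without doublet removal and 7 in each mouse alone. With 2 libraries per group and sums of as few as 5 cells, differences of the size of the SEs given were not detectable.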

Other observations

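The isoforms stood in a different order in the 2 kinds of library from cultured HFSCs. As a ratio of the mean CPM of the BMP2/4 cultures in 10x data to the mean CPM of bulk wild-type atRA+PKCi cultures, Prkce had 6.6 and Prkca 3.68, Prkcz 1.03 and Prkch 0.994, and Prkcd 0.303 and Prkci 0.174. The isoforms above 1 had gene spans of 490.1 kb (Prkce), 410.5 kb (Prkca) and 101.2 kb (Prkcz), and those below it 193.4 kb (Prkch), 57.21 kb (Prkci) and 30.86 kb (Prkcd). The cultures differed in additives as well, and in their source, anagen VI skin for the 10x data and telogen skin for bulk. The part of gene span, medium or source in these ratios was not tested.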
